A study of Homo sapiens with 9 samples.

Results

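The mitotic G2/M genes are a module of 45 genes, transcribed for the most part late in the cell cycle, before and during mitosis. They were taken by name and matched to the gene identifiers of the count table, in which they are 45 of 60664 genes, and all 45 passed the filter on low counts that left 17207 genes for testing. Sorted by role, they hold 6 kinases, 5 cyclins and CDC25 phosphatases, 5 genes of the spindle checkpoint, 3 genes around the anaphase-promoting complex, 7 kinesins, 7 centromere and kinetochore genes, 2 genes of the chromosomal passenger complex, 6 genes of spindle assembly and cytokinesis, TOP2A with MKI67, and 2 transcription factors. The groups were wild type Huh-7 cells (WT), Huh-7 cells with a CRISPR/Cas9 knockout of vtRNA1-1 (1-1 KO) and Huh-7 cells with a CRISPR/Cas9 knockout of vtRNA1-2 (1-2 KO), with 3 mRNA libraries per line and no treatment in any of them. Huh-7 is a human hepatocellular carcinoma line, and vault RNAs (vtRNAs) are short non-coding RNAs made by RNA polymerase III. WT and 1-1 KO cells came to the study from another laboratory and 1-2 KO cells were made in the study by way of single-cell colonies, so that each knockout is 1 line and a difference between lines cannot be told apart from a difference between clones. RNA was taken from growing cultures that had reached 80% confluency and had not been synchronised. The study calls the libraries of a line biological replicates without saying whether they came from separate cultures, so that p-values measure the spread between these libraries, which may in part be technical.

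Entry into mitosis is driven by the kinase CDK1 bound to cyclin B, which CDC25 phosphatases switch on by removing inhibitory phosphates. PLK1 and the Aurora kinases then build the spindle, kinesins move and anchor its microtubules, and kinetochores tie each chromosome to it. The spindle checkpoint holds the anaphase-promoting complex (APC/C) and its coactivator CDC20 in check until every chromosome is attached, after which securin and the cyclins are degraded and the cell divides. Most of these genes are switched on together by the MuvB complex with B-MYB and FOXM1, and repressed in resting cells by MuvB within the DREAM complex, which reads a short promoter element, the cell cycle genes homology region (CHR), that is often accompanied by CCAAT boxes bound by NF-Y. In liver tumours these genes mark dividing cells.

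Total counts per library were between 32384469 and 41782387. These libraries select mRNA and do not check the knockouts: reads on VTRNA1-1 came to 1 count over all 9 libraries, in WT replicate 1, and reads on VTRNA1-2 to 0. All 12 hepatocyte markers looked up, such as ALB, AFP and HNF4A, were detected in all 9 libraries, and their summed level was 15154 to 16089 CPM in WT, 31339 to 32287 CPM in 1-1 KO and 21352 to 23373 CPM in 1-2 KO (CPM, a gene's counts divided by the library's total in units of 1e6 counts after TMM scaling). ALB and AFP had the largest part in these differences. Their means were 2532 and 1759 CPM in WT, 9427 and 8167 CPM in 1-1 KO, and 4739 and 7419 CPM in 1-2 KO. The median log2 difference from the WT mean over the 12 markers was 0.36 to 0.43 in 1-1 KO libraries and 0.0036 to 0.078 in 1-2 KO libraries. Of 21 markers of fibroblasts, endothelium and blood, 9 had 5 counts or fewer in every library, among them the fibroblast markers THY1 and DCN and the T cell marker CD3E, and KDR and HBB were at 0 in all 9. Summed, the fibroblast markers had 191 to 202 CPM in WT, 302 to 317 in 1-1 KO and 122 to 131 in 1-2 KO. LUM was the largest part in each line. The blood markers summed to 115 CPM in each WT library, 102 to 107 in 1-1 KO and 21.5 to 22.4 in 1-2 KO. Nearly all of this was LYZ. The median log2 difference from the WT mean was positive in both knockouts for both classes. It was 0.86 to 0.92 in 1-1 KO and 0.44 to 0.48 in 1-2 KO over the tested fibroblast markers. Over the tested blood markers it was 0.53 to 0.77 and 0.26 to 0.39. In 1-2 KO, LUM, PDGFRA and LYZ were called lower than in WT, and COL1A1, COL1A2, COL3A1, PDGFRB, PTPRC and CD14 higher. The endothelial markers summed to 7.42 to 8.07, 6.43 to 7.32 and 0.831 to 1.13 CPM. Most of this was PECAM1, with means of 7.57 CPM in WT, 6.67 CPM in 1-1 KO and 0.839 CPM in 1-2 KO. VWF, CDH5, KDR, TEK and ERG did not pass the filter on low counts. The part of these levels in the results was not tested. Replicate 1 of 1-2 KO stood apart from the other libraries of its line, since the chi-square over all genes, divided by its degrees of freedom, was 15.2 and 16.1 against them, where the other pairs within a line gave 2.07 to 10.4.

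Many promoters of the module carry the elements just named. RefSeq promoter windows (GRCh38.p14, 250 bases before to 50 after each start) were at hand for 38 of the 45 genes, in 50 windows, and not for AURKA, BUB3, TTK, UBE2C, BIRC5, TPX2 and FOXM1. The CHR letters TTTGAA were found on either strand in 58% of these windows against 15.2% of all 35116 windows, CCAAT in 72% against 34.6%, and both in the same window in 46% against 5.90%. The variant TTTAAA of the CHR letters, searched after the sequences had been seen, were in 28% against 12.2%. Matches of different motifs may share letters at their ends, and a match is a description of the letters and not a binding site. The promoters of 6 members are shown from 150 bases before to 30 after the start, with the letters of these 3 motifs, on either strand, in capitals. CCNB1, CCNB2 and KIF23 are shown as genes lower in both knockouts that carry the elements in different layouts, KIF2C and CENPE as the genes with the largest falls in 1-2 KO against WT and against 1-1 KO, and MYBL2 because it was the only member higher in 1-2 KO than in WT and holds none of the letters in this stretch. The windows are chr5:69167000-69167179 (plus strand) for CCNB1, chr15:59104996-59105175 (plus) for CCNB2, chr15:69414199-69414378 (plus) for KIF23, chr1:44739687-44739866 (plus) for KIF2C, chr4:103198314-103198493 (minus) for CENPE and chr20:43666964-43667143 (plus) for MYBL2.
CCNB1: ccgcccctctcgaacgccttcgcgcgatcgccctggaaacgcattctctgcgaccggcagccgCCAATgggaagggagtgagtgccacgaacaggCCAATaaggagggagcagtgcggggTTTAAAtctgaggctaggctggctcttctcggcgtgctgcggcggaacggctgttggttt
CCNB2: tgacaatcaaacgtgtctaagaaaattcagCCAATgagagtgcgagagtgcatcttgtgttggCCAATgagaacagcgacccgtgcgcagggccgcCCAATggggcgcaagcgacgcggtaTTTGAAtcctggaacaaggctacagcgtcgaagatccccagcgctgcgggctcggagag
KIF23: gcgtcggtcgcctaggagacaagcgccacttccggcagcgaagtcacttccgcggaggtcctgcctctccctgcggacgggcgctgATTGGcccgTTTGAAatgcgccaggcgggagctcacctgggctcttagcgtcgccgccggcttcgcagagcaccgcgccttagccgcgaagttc
KIF2C: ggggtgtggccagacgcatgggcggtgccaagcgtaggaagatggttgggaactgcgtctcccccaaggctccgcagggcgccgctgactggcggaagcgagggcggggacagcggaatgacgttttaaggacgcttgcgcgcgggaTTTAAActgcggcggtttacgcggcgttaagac
CENPE: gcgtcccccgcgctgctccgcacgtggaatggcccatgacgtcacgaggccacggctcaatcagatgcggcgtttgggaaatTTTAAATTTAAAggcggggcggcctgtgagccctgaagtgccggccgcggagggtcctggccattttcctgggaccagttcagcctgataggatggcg
MYBL2: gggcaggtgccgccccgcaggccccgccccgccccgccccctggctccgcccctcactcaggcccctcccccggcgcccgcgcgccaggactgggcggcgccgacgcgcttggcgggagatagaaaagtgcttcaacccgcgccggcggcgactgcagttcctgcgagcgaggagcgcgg

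The positions that follow are those in the stretches shown, and the full windows hold further matches for CCNB2, KIF23 and CENPE. CCNB2 holds CCAAT letters at 120, 87 and 54 bases before the start and TTTGAA at 29 bases before it. CCNB1 holds CCAAT at 87 and 55 bases before the start and TTTAAA at 30. KIF23 holds 1 CCAAT box, read on the other strand, at 64 bases and TTTGAA at 55 bases before the start, while KIF2C and CENPE hold TTTAAA and no CCAAT. Of the 32 members with the CHR letters or their variant in a window, 26 were called lower in each knockout (adjusted p under 0.05), where 30.9% of all tested genes were called lower in 1-1 KO and 26.2% in 1-2 KO, with median log2 fold changes of -0.38 in 1-1 KO and -0.34 in 1-2 KO. Of the 6 with neither, which were AURKB, BUB1, CCNA2, MYBL2, NEK2 and SGO1, 4 were called lower in 1-1 KO and 1 in 1-2 KO, with medians of -0.21 and -0.06. This split was not tested, and it rests on a variant that was added after the sequences had been seen. CCNB1, CDC25B, CENPE, KIF20A, KIF2C and PTTG1 hold TTTAAA and not TTTGAA, and all of them were called lower in 1-2 KO. By TTTGAA alone they would stand among the members without the letters, so no difference between the groups is read from these counts.

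Most of the module was lower in each knockout than in WT. A gene was called where the p-value of the quasi-likelihood test in edgeR, adjusted over all tested genes after Benjamini and Hochberg, was under 0.05. In 1-1 KO, 35 of the 45 genes were lower and 8 higher, against a background of 30.9% of all tested genes called lower and 32.5% called higher (63.4% in either direction). The 8 higher genes were PLK4, CCNA2, MAD2L1, KIF18A, CENPE, SPC25, BIRC5 and FOXM1, and AURKB and NDC80 were not called. In 1-2 KO, 31 of the 45 were lower and 1, MYBL2, was higher, against 26.2% of all tested genes lower and 28.2% higher (54.4% in either direction). The 13 members not called there were PLK4, AURKB, CCNA2, CDC25C, BUB1, UBE2C, KIF18A, NUF2, SPC25, SGO1, BIRC5, HMMR and FOXM1. The falls were modest: the median log2 fold change over the members was -0.33 in 1-1 KO, where all tested genes had a median of 0.01, and -0.27 in 1-2 KO, where it was 0.02. Without replicate 1 of 1-2 KO, 32 members were lower and 2 higher there, with a median of -0.25. The largest fall in 1-1 KO was that of CCNB1 (1.72-fold) and the largest in 1-2 KO that of KIF2C (1.74-fold). Both comparisons use the same WT libraries, so their results are not independent of each other.

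Summed over the 45 genes, the level was 8309, 8480 and 8229 CPM in WT, 6662, 6717 and 6838 CPM in 1-1 KO, and 6519, 6797 and 6806 CPM in 1-2 KO. Every knockout library lay below every WT library, and the libraries of the 2 knockouts overlapped. For single genes, the 3 libraries of 1-1 KO did not overlap those of WT for 44 of 45 members, where 68.9% of all tested genes did not overlap. In 1-2 KO this held for 33 of 45, where the background was 58.4%. The spread between libraries was small, with a median coefficient of variation over the members of 3.21% in WT, 2.59% in 1-1 KO and 3.70% in 1-2 KO. In cultures measured in bulk, fewer cells in G2 and mitosis and less mRNA of these genes per cell cannot be told apart.

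**Figure D1:**
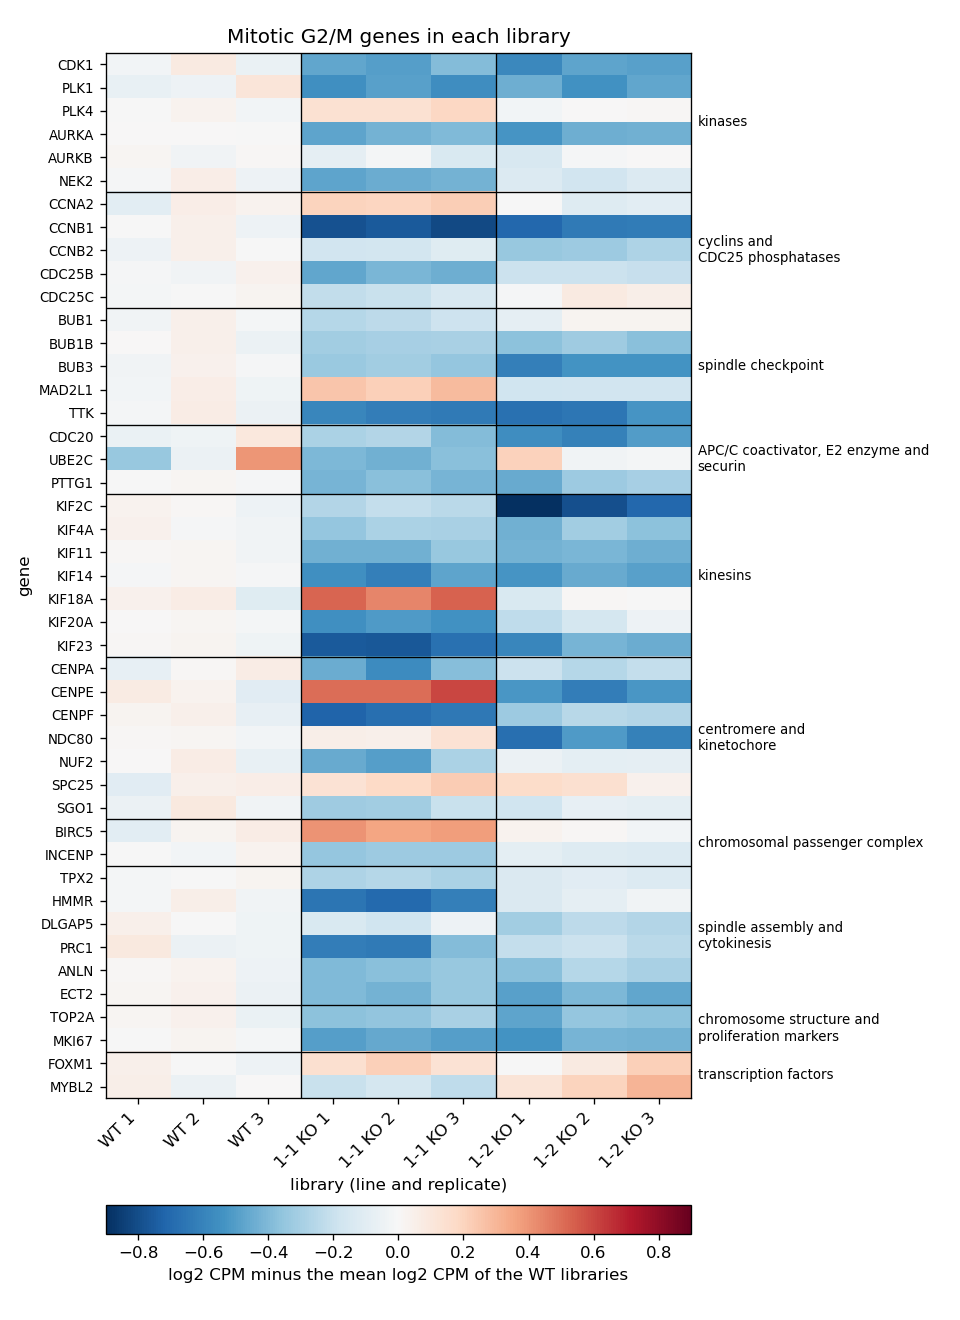
Level of each of the 45 members (rows, grouped by role) in each of the 9 libraries (columns), as log2 CPM minus the mean log2 CPM of the 3 WT libraries, from blue (lower) to red (higher). Most rows are blue in both knockouts, while CENPE and KIF18A are red in 1-1 KO, and CENPE is blue in 1-2 KO.

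The members also followed the genes next to them on the chromosome. For each member the median log2 fold change of its 50 nearest tested genes was taken, and this median ran from -0.51 to 0.39 in 1-1 KO and from -0.36 to 0.39 in 1-2 KO. Across the 45 genes, which are not independent replicates and of which several share neighbours, the correlation of a member's log2 fold change with that of its neighbours was 0.79 in 1-1 KO (Spearman's rho 0.68) and 0.60 in 1-2 KO (rho 0.51), given as a description. The same correlation was not taken over all tested genes, so this likeness is not shown to be a trait of the module. PLK4, CCNA2, MAD2L1 and CENPE, which are among the 8 members higher in 1-1 KO, are the 4 members on chromosome 4, and their neighbours' medians there were between 0.34 and 0.39. In 1-2 KO the same neighbourhoods were at 0.04 to 0.11. The 5 members on chromosome 5, which also carries the vtRNA1 genes, are CCNB1, CDC25C, PTTG1, KIF20A and HMMR. Their neighbours' medians ran from -0.34 to -0.08 in 1-1 KO and from -0.30 to 0.39 in 1-2 KO.

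With the neighbours' median removed, the direction of the module stayed and the list of exceptions changed. In 1-1 KO, 33 members were then lower and 2 higher (background 29.1% and 28.6%), with a median of -0.21. The 2 were KIF18A at 0.28 and CENPE at 0.19, while PLK4, CCNA2, MAD2L1 and SPC25 were called lower and BIRC5, FOXM1, CDC20, KIF2C, BUB3, PTTG1, UBE2C, CDC25C and MYBL2 were not called. NDC80 was called lower, at -0.11. In 1-2 KO, 36 members were then lower and 1, FOXM1 at 0.26, was higher (background 26.4% and 25.4%), with a median of -0.30. CCNA2, CDC25C, NUF2, BIRC5 and HMMR were called lower there, and MYBL2 was at -0.017 and not called.

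**Figure D2:**
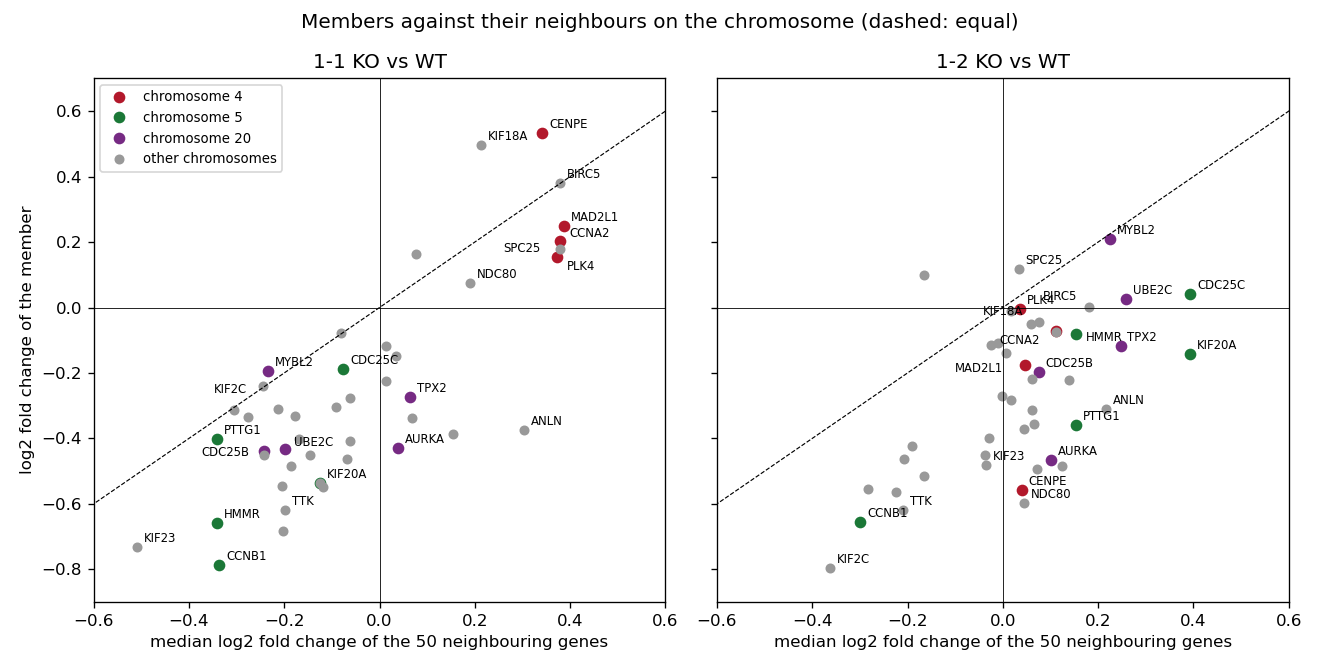
Log2 fold change of each member (vertical axis) against the median over its 50 nearest tested genes (horizontal axis), in a panel for each knockout against WT, 1 point per gene, with the members on chromosomes 4, 5 and 20 coloured and the dashed line marking equal values. Most points lie under the dashed line, and in 1-1 KO the chromosome 4 members sit at the right, with neighbours' medians of 0.34 to 0.39.

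Of the 6 kinases, 4 were lower in each knockout, where 30.9% of all tested genes were lower in 1-1 KO and 26.2% in 1-2 KO. The same shares apply to the classes that follow. CDK1 (ENSG00000170312, GRCh38 chromosome 10, 60778331 to 60794852), the kinase that starts mitosis, had 333, 358 and 323 CPM in WT, 245, 239.7 and 257 CPM in 1-1 KO and 226, 243 and 241 CPM in 1-2 KO. All 6 knockout libraries lay below all 3 WT libraries. Its log2 fold change was -0.45 in 1-1 KO (SE 0.045, edgeR adjusted p = 8.15e-07) and -0.51 in 1-2 KO (SE 0.045, edgeR adjusted p = 2.97e-07). PLK1, which promotes mitotic entry and centrosome maturation, had 141, 143 and 159.8 CPM in WT, 101, 105 and 100.2 CPM in 1-1 KO and 109, 101 and 107 CPM in 1-2 KO, with log2 fold changes of -0.54 (SE 0.047, edgeR adjusted p = 2.26e-07) and -0.49 (SE 0.047, edgeR adjusted p = 8.49e-07). The knockouts did not differ from each other in CDK1 or PLK1 by more than the spread: the 95% intervals of the log2 fold change of 1-2 KO against 1-1 KO were -0.16 to 0.03 and -0.05 to 0.15.

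AURKA, the Aurora kinase of centrosomes and spindle poles, had 215, 215 and 213 CPM in WT, 154, 159.7 and 163 CPM in 1-1 KO and 148, 158 and 159 CPM in 1-2 KO. No knockout library reached the WT range, and the log2 fold changes were -0.43 (SE 0.036, edgeR adjusted p = 1.42e-07) and -0.47 (SE 0.036, edgeR adjusted p = 8.57e-08). AURKB, the Aurora kinase of the chromosomal passenger complex, was not called in either knockout, at 93.9 to 97.0 CPM in WT, 87.2 to 94.7 CPM in 1-1 KO and 86.7 to 96.0 CPM in 1-2 KO. The 95% intervals of its log2 fold change were -0.17 to 0.02 and -0.14 to 0.04, so that falls of the size seen in AURKA lie outside them. NEK2, a centrosome kinase, fell by 0.45 on the log2 scale in 1-1 KO and by 0.14 in 1-2 KO, and was higher in 1-2 KO than in 1-1 KO (0.31). PLK4, which starts centriole duplication, was higher in 1-1 KO (log2 fold change 0.15), with -0.00 in 1-2 KO.

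Among the cyclins and CDC25 phosphatases, cyclin B1 fell most. CCNB1 (ENSG00000134057, chromosome 5, 69167135 to 69178245) had 354, 366 and 344 CPM in WT, 206, 209.9 and 201 CPM in 1-1 KO and 217, 228 and 229 CPM in 1-2 KO. The 3 lines did not overlap, with WT highest and 1-1 KO lowest. Its log2 fold change was -0.79 in 1-1 KO (SE 0.037, edgeR adjusted p = 3.37e-10) and -0.66 in 1-2 KO (SE 0.037, edgeR adjusted p = 2.68e-09), and 0.13 between 1-2 KO and 1-1 KO (SE 0.037, edgeR adjusted p = 0.00701). The neighbours' medians of CCNB1 were -0.34 and -0.30, and with these removed it stayed lower, at -0.45 and -0.36. CCNB2, the second B-type cyclin, fell by 0.15 in 1-1 KO and by 0.31 in 1-2 KO, so that the order of the knockouts was the other way round from CCNB1 (1-2 KO against 1-1 KO, -0.17).

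CCNA2, the cyclin of S phase and G2, was higher in 1-1 KO, with 152, 169 and 166 CPM in WT, 187, 186 and 189 CPM in 1-1 KO and 162, 149.9 and 152 CPM in 1-2 KO. All 1-1 KO libraries lay above all others (log2 fold change 0.20, SE 0.044, edgeR adjusted p = 0.000951), while 1-2 KO overlapped WT (-0.07). Without WT replicate 1, or without replicate 1 of 1-2 KO, CCNA2 was called lower in 1-2 KO, at -0.12 and -0.11. CCNA2 shares its locus with EXOSC9 on the other strand, which had 1708 to 2586 counts where CCNA2 had at least 5238. CDC25B, a phosphatase that activates CDK1 at mitotic entry, fell by 0.44 in 1-1 KO and by 0.20 in 1-2 KO. CDC25C fell by 0.19 in 1-1 KO and was at 0.04 in 1-2 KO. It shares its locus with FAM53C on the other strand, which had 2604 to 4716 counts where CDC25C had at least 738, and whether the counting used the strand is not given in the sources used here.

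The spindle checkpoint genes were lower in 4 of 5 cases in each knockout. TTK (MPS1), the kinase that recruits the checkpoint proteins to unattached kinetochores, had 122, 129 and 119 CPM in WT, 82.0, 80.1 and 79.2 CPM in 1-1 KO and 77.6, 78.7 and 85.2 CPM in 1-2 KO. The log2 fold change was -0.62 in both knockouts (SE 0.043 in each, edgeR adjusted p = 1.97e-08 and 2.66e-08), and that between the knockouts was 0.00 (95% interval -0.09 to 0.10). BUB3, which carries BUB1 and BUBR1 to kinetochores, had 222, 233 and 225 CPM in WT, 179, 182 and 178 CPM in 1-1 KO and 148, 156 and 156 CPM in 1-2 KO. Its 3 lines were fully separate (-0.33 with SE 0.035 and edgeR adjusted p = 1.34e-06 in 1-1 KO, -0.56 with SE 0.035 and edgeR adjusted p = 8.15e-09 in 1-2 KO), and BUB3 was lower in 1-2 KO than in 1-1 KO (-0.23). With its neighbours' median of -0.28 removed, it was not called in 1-1 KO.

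BUB1B, which encodes BUBR1, fell by 0.30 and 0.36. BUB1, the kinase that marks centromeric chromatin, fell by 0.23 in 1-1 KO and was at -0.01 in 1-2 KO. MAD2L1, which encodes the MAD2 protein that inhibits CDC20, was the exception in this class: at 163 to 175 CPM in WT, it was at 194 to 204 CPM in 1-1 KO and at 147 to 149 CPM in 1-2 KO, called higher in 1-1 KO (0.25) and lower in 1-2 KO (-0.18). It lies on chromosome 4, where its neighbours' median was 0.39 in 1-1 KO.

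The 3 genes around the APC/C were lower in 1-1 KO, and CDC20 and PTTG1 were lower in 1-2 KO. CDC20, the coactivator that starts anaphase, had 207, 209 and 230.3 CPM in WT, 177, 179.5 and 164 CPM in 1-1 KO and 146, 141 and 152 CPM in 1-2 KO, without overlap between the 3 lines. Its log2 fold changes were -0.31 (SE 0.048, edgeR adjusted p = 5.77e-05) and -0.56 (SE 0.048, edgeR adjusted p = 2.69e-07), and its neighbours' medians were -0.31 and -0.28. PTTG1, the securin that holds separase inactive, had 179, 182 and 179 CPM in WT, 135, 139 and 135 CPM in 1-1 KO and 131, 144 and 146 CPM in 1-2 KO, with log2 fold changes of -0.40 (SE 0.040, edgeR adjusted p = 8.38e-07) and -0.36 (SE 0.040, edgeR adjusted p = 3.53e-06). Its near-identical copies PTTG2 and PTTG3P had at most 1 and 3 counts in a library, where PTTG1 had at least 5508.

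UBE2C, the E2 enzyme that starts ubiquitin chains for the APC/C, was the least even member, with a coefficient of variation of 26.2% in WT. It had 103, 126 and 171 CPM in WT, 98.4, 96.5 and 100.6 CPM in 1-1 KO and 150.5, 127 and 128 CPM in 1-2 KO. The lowest WT library was close to the 1-1 KO libraries and the highest lay above all others. Its log2 fold change in 1-1 KO was -0.43 (SE 0.13, edgeR adjusted p = 0.00933), and it moved to -0.21 without WT replicate 3. In 1-2 KO it was 0.03, and without WT replicate 3 UBE2C was called higher there, at 0.23.

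Of the 7 kinesins, 6 were lower in each knockout. KIF23 (MKLP1), which bundles the central spindle for cytokinesis, had 229.9, 232 and 222 CPM in WT, 135, 134 and 143 CPM in 1-1 KO and 152, 171 and 167 CPM in 1-2 KO. Its 3 lines did not overlap, and the log2 fold changes were -0.73 (SE 0.045, edgeR adjusted p = 5.05e-09) and -0.48 (SE 0.044, edgeR adjusted p = 4.76e-07). The neighbours' median of KIF23 in 1-1 KO was -0.51, the lowest of any member, and with it removed the change was -0.22 and still called. KIF2C (MCAK, ENSG00000142945, chromosome 1, 44739818 to 44767767), which takes microtubules apart at centromeres, had 139, 137 and 132 CPM in WT, 113, 117 and 115 CPM in 1-1 KO and 73.0, 78.4 and 83.3 CPM in 1-2 KO. Here 1-2 KO was lowest (-0.80, SE 0.044, edgeR adjusted p = 2.51e-09), and the log2 fold change of 1-1 KO was -0.24 (SE 0.044, edgeR adjusted p = 0.000259). The difference between the knockouts, -0.56, was called as well (SE 0.044, edgeR adjusted p = 6.13e-08).

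KIF18A, which slows microtubule growth to line up chromosomes, moved the other way in 1-1 KO. It had 59.1, 60.1 and 53.3 CPM in WT, 82.7, 77.8 and 82.9 CPM in 1-1 KO and 52.3, 57.8 and 57.3 CPM in 1-2 KO, so that 1-1 KO stood above both other lines (log2 fold change 0.50, SE 0.052, edgeR adjusted p = 1.4e-06). In 1-2 KO it overlapped WT, at -0.04. The motors that slide spindle microtubules apart or act in cytokinesis fell in both knockouts: KIF11 (Eg5) by 0.40 in 1-1 KO and 0.42 in 1-2 KO, KIF14 by 0.55 and 0.49, KIF4A by 0.31 and 0.37, and KIF20A (MKLP2) by 0.54 and 0.14. KIF20A shares its locus with CDC23 and BRD8 on the other strand, with 3479 to 5221 and 2195 to 3710 counts where KIF20A had at least 3374, and KIF4A with PDZD11, with 1070 to 1403 counts. The copy KIF4B had 111 to 162 counts, where KIF4A had at least 3752.

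Of the 7 centromere and kinetochore genes, 4 were lower and 2 higher in 1-1 KO, against 30.9% and 32.5% of all tested genes. In 1-2 KO, 4 were lower, against 26.2% of all tested genes. CENPE (ENSG00000138778, chromosome 4, 103105349 to 103198445), the kinetochore motor that carries chromosomes to the spindle equator, had 153, 149 and 136 CPM in WT, 206, 206 and 220.5 CPM in 1-1 KO and 101, 94.5 and 101 CPM in 1-2 KO. The 3 lines were far apart, with 1-1 KO highest and 1-2 KO lowest. Its log2 fold change was 0.53 in 1-1 KO (SE 0.048, edgeR adjusted p = 2.54e-07) and -0.56 in 1-2 KO (SE 0.048, edgeR adjusted p = 2.51e-07). At -1.09 between 1-2 KO and 1-1 KO (SE 0.048, edgeR adjusted p = 1.25e-10), it had the largest change of any member in the 3 comparisons, and with the neighbours' medians removed all 3 calls stayed, at 0.19, -0.60 and -0.79.

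CENPF, a large coiled-coil protein of the outer kinetochore, had 437, 443 and 408 CPM in WT, 260.3, 268 and 275 CPM in 1-1 KO and 341, 360.4 and 358 CPM in 1-2 KO. The lines did not overlap (-0.68 in 1-1 KO with SE 0.040 and edgeR adjusted p = 3.37e-09, -0.28 in 1-2 KO with SE 0.040 and edgeR adjusted p = 3.29e-05). NDC80, which with NUF2, SPC24 and SPC25 forms the complex that grips microtubules, had 92.5, 93.1 and 90.1 CPM in WT, 95.1, 94.8 and 100.4 CPM in 1-1 KO and 57.5, 64.7 and 60.2 CPM in 1-2 KO. It fell in 1-2 KO (-0.60, SE 0.044, edgeR adjusted p = 4.87e-08) and was not called in 1-1 KO (0.07, SE 0.043, edgeR adjusted p = 0.149), although it was called higher there with scaling by library size alone (0.12) and with a filter of 10 counts in every library (0.10). The other members of that complex went differently. NUF2 fell by 0.41 in 1-1 KO and was at -0.08 in 1-2 KO, whereas SPC25 was at 0.18 in 1-1 KO and 0.12 in 1-2 KO, called in the first.

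The call of SPC25 was lost without WT replicate 1 (0.13) and without replicate 3 of 1-1 KO (0.16). SPC25 shares its locus with NOSTRIN on the other strand, which had 171 to 789 counts where SPC25 had at least 888. CENPA, the histone H3 variant that marks centromeres, fell by 0.46 and 0.22, and SGO1 (shugoshin), which shields centromeric cohesin, fell by 0.28 in 1-1 KO and was at -0.11 in 1-2 KO. CENPA lost its call in 1-2 KO without replicate 2 of that line (-0.21), and SGO1 gained one there without WT replicate 1 (-0.14) or WT replicate 3 (-0.15). CENPA shares its locus with SLC35F6 on the same strand, with 697 to 914 counts where CENPA had at least 326.

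The chromosomal passenger complex, which corrects faulty attachments, was split in 1-1 KO. BIRC5 (survivin) had 87.4, 95.1 and 97.6 CPM in WT, 124, 119 and 121 CPM in 1-1 KO and 95.1, 93.7 and 91.6 CPM in 1-2 KO. It was higher in 1-1 KO without overlap (0.38, SE 0.041, edgeR adjusted p = 1.84e-06), and its neighbours' median was 0.38. In 1-2 KO it overlapped WT (0.00, 95% interval -0.09 to 0.09). INCENP, the scaffold of the complex, had 139, 137 and 143 CPM in WT, 109.9, 111 and 112 CPM in 1-1 KO and 131, 129 and 128 CPM in 1-2 KO. It was lower in both knockouts, at -0.33 (SE 0.032, edgeR adjusted p = 4.85e-07) and -0.11 (SE 0.032, edgeR adjusted p = 0.00892). With scaling by library size alone, INCENP was at -0.05 in 1-2 KO and not called, and NEK2, KIF20A, CENPA and TPX2 lost their calls there as well, at -0.08, -0.09, -0.17 and -0.06.

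All 6 genes of spindle assembly and cytokinesis were lower in 1-1 KO, and 5 of them in 1-2 KO. HMMR, which anchors microtubules at spindle poles, had 95.6, 100.3 and 94.9 CPM in WT, 61.4, 59.7 and 63.4 CPM in 1-1 KO and 88.6, 91.4 and 94.95 CPM in 1-2 KO. It fell in 1-1 KO (-0.66, SE 0.040, edgeR adjusted p = 4.61e-09), and in 1-2 KO it was at -0.08 and was called lower only when WT replicate 3 was left out (-0.12), among the fits with 1 library left out. ECT2, which activates RhoA at the division plane, had 368, 372 and 349 CPM in WT, 275, 271 and 287 CPM in 1-1 KO and 259, 275 and 263 CPM in 1-2 KO. Its log2 fold changes were -0.39 (SE 0.039, edgeR adjusted p = 8.14e-07) and -0.45 (SE 0.039, edgeR adjusted p = 2.28e-07). ANLN (anillin), which organises the contractile ring, fell by 0.37 in 1-1 KO and 0.31 in 1-2 KO, PRC1, which crosslinks midzone microtubules, by 0.55 and 0.22, TPX2, the activator of AURKA, by 0.27 and 0.12, and DLGAP5 (HURP), which stabilises kinetochore fibres, by 0.12 and 0.27. The fall of DLGAP5 in 1-1 KO was not called without WT replicate 1 (-0.10), without replicate 1 of 1-1 KO (-0.11), without its replicate 2 (-0.09), or with scaling by library size alone (-0.07).

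TOP2A and MKI67 were lower in both knockouts. TOP2A, the topoisomerase that untangles sister chromatids, had 1168, 1185 and 1106 CPM in WT, 894, 902 and 942 CPM in 1-1 KO and 829.7, 906 and 890.4 CPM in 1-2 KO. Its log2 fold changes were -0.34 (SE 0.042, edgeR adjusted p = 7.22e-06) and -0.40 (SE 0.042, edgeR adjusted p = 1.9e-06). MKI67, whose protein Ki-67 coats mitotic chromosomes and is the usual stain for dividing cells, had 238, 242 and 235 CPM in WT, 169, 174 and 169 CPM in 1-1 KO and 164, 178 and 177 CPM in 1-2 KO. It fell by 0.48 (SE 0.037, edgeR adjusted p = 5.8e-08) and by 0.46 (SE 0.037, edgeR adjusted p = 1.31e-07). Neither gene differed between the knockouts beyond the spread, with 95% intervals of the log2 fold change of -0.15 to 0.03 and -0.06 to 0.10.

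Of the 2 transcription factors that drive the module, FOXM1 was higher and MYBL2 lower in 1-1 KO, and MYBL2 was higher in 1-2 KO. FOXM1 had 129, 124 and 121 CPM in WT, 138, 145 and 137 CPM in 1-1 KO and 124, 132 and 145 CPM in 1-2 KO. The 1-1 KO libraries lay above WT (0.16, SE 0.050, edgeR adjusted p = 0.0101), while 1-2 KO overlapped WT (0.10, SE 0.050, edgeR adjusted p = 0.111). Without replicate 1 of 1-2 KO it was called higher there as well, at 0.15. FOXM1 shares its locus with RHNO1 on the other strand, which had 1368 to 1850 counts where FOXM1 had at least 3817. MYBL2, which encodes B-MYB, had 217, 202 and 209.7 CPM in WT, 183, 188 and 179 CPM in 1-1 KO and 227, 240.4 and 259 CPM in 1-2 KO. The 3 lines did not overlap, with 1-1 KO lowest and 1-2 KO highest. It was lower in 1-1 KO (-0.19, SE 0.047, edgeR adjusted p = 0.0023) and higher in 1-2 KO (0.21, SE 0.047, edgeR adjusted p = 0.00166), and its neighbours' medians were -0.23 and 0.23.

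**Figure D3:**
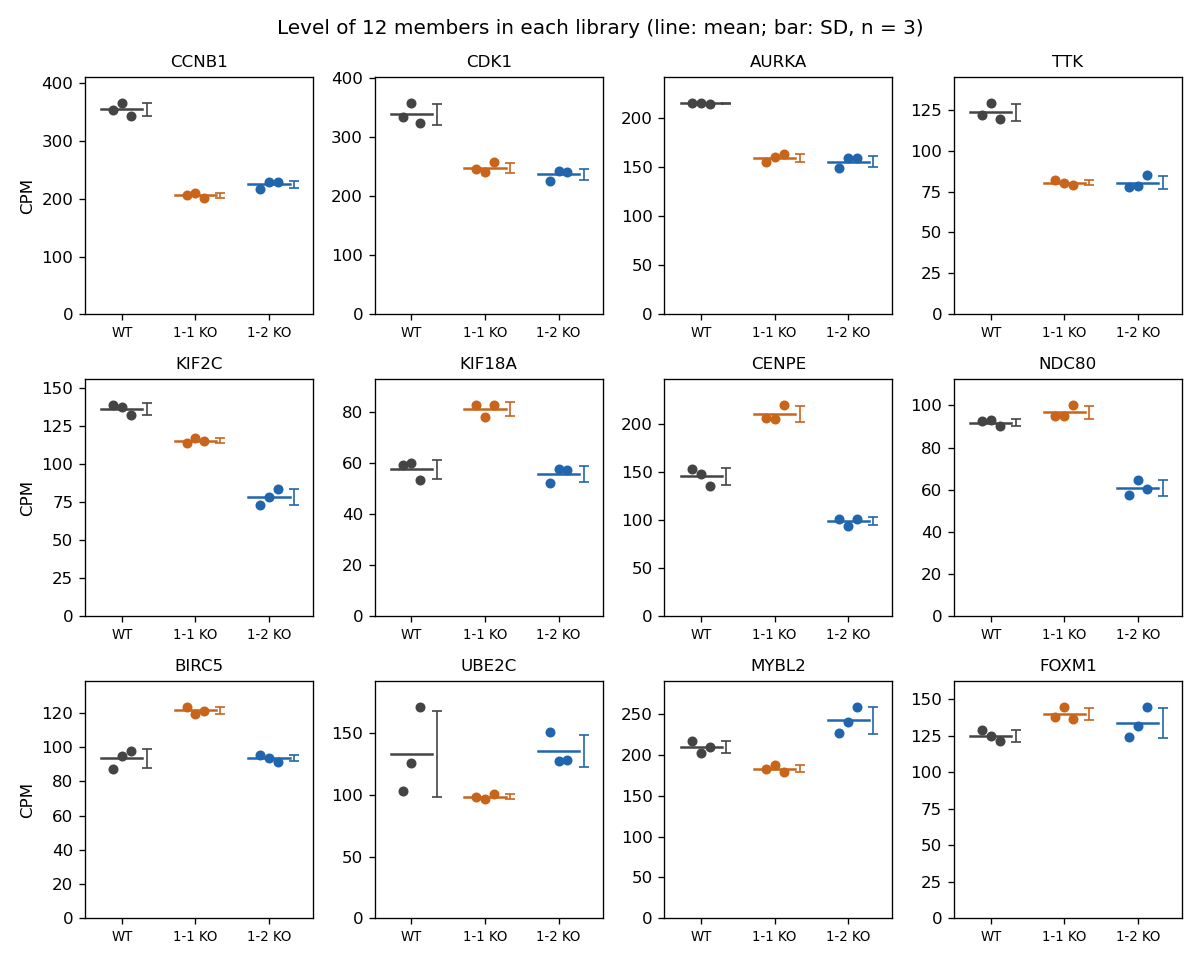
Level in CPM (vertical axes, from 0) of 12 members in the 3 libraries of each line, with the mean as a line and the SD as a bar (n = 3). CCNB1, CDK1, AURKA and TTK are lower in both knockouts, KIF2C and NDC80 are lowest in 1-2 KO, and CENPE, KIF18A and BIRC5 are highest in 1-1 KO.

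Set against each other directly, the knockouts differed in 29 of the 45 members, a share near the 65.3% of all tested genes called. In 1-2 KO, 17 members were higher than in 1-1 KO and 12 were lower, against 33.1% and 32.2% of all tested genes, and the median log2 fold change of the members was 0.02. The libraries of the knockouts did not overlap for 30 of the 45 members, where 69.8% of all tested genes did not. The largest rises were those of HMMR (0.58), UBE2C (0.46) and MYBL2 (0.40), and the largest falls those of CENPE (-1.09), NDC80 (-0.67) and KIF2C (-0.56). HMMR was called at an edgeR adjusted p = 1.32e-08 (SE 0.040), MYBL2 at 3.13e-06 (SE 0.047), NDC80 at 7.77e-09 (SE 0.044) and UBE2C at 0.00611 (SE 0.13). The 16 members not called were CDK1, PLK1, AURKA, AURKB, BUB1B, TTK, PTTG1, KIF4A, KIF11, KIF14, SPC25, ANLN, ECT2, TOP2A, MKI67 and FOXM1. Without WT replicate 3, which enters only through the shared estimate of the spread and the scaling, BUB1B, KIF4A and ECT2 were called lower, at -0.08, -0.09 and -0.09. With the neighbours' medians removed, 10 members were higher and 19 lower (background 31.4% and 28.8%), and PLK4, CDC25C, KIF20A and KIF23 were called in the other direction. The 3 largest rises were then not called, with HMMR at 0.08, UBE2C at 0.0022 and MYBL2 at -0.056, and 11 members in all lost their call. Of the 16 that had not been called, 11 then were, PLK1, AURKA, AURKB, BUB1B, PTTG1, KIF4A and KIF14 as lower (-0.45 for PTTG1, -0.32 for KIF4A, -0.20 for PLK1) and SPC25, ANLN, ECT2 and FOXM1 as higher (0.28 for SPC25).

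**Figure D4:**
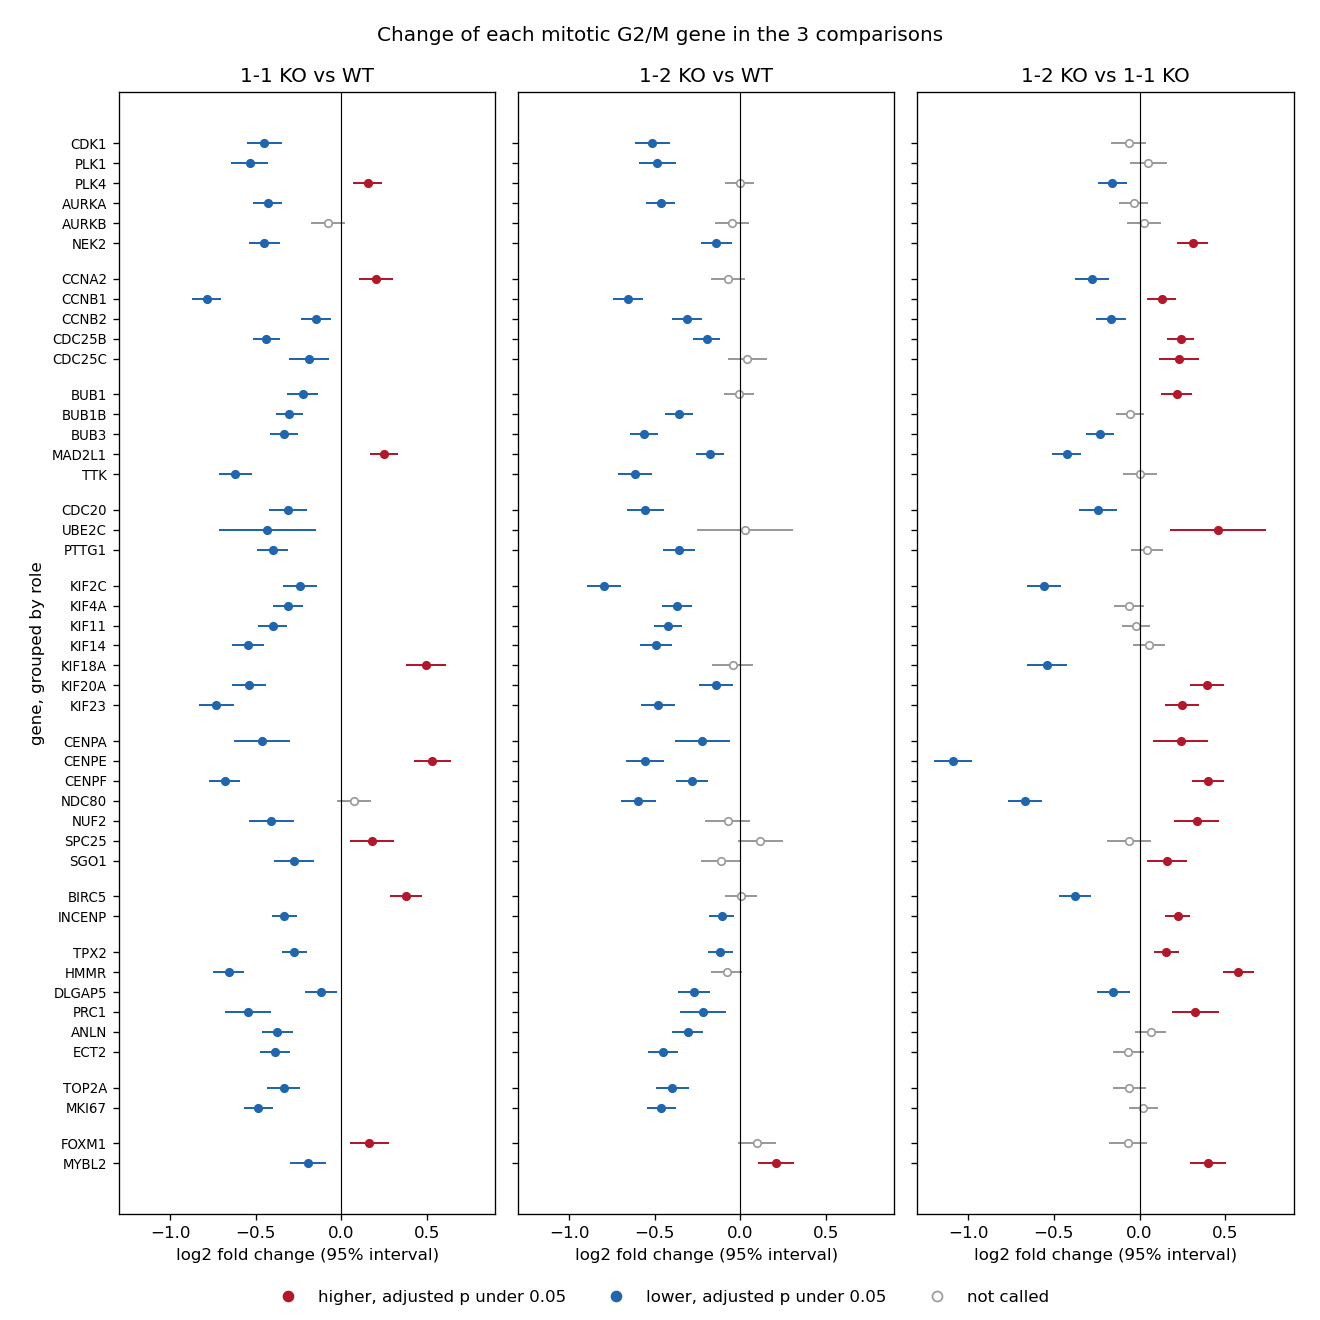
Log2 fold change of each member (rows, grouped by role) with its 95% interval in 1-1 KO against WT, 1-2 KO against WT and 1-2 KO against 1-1 KO, in red where called higher, in blue where called lower and open grey where not called. The first 2 panels are mostly blue, with 35 and 31 of 45 members lower, while the third is mixed, with 17 higher and 12 lower.

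Per length of annotated merged exons, which need not be that of a transcript, the members spanned a wide range in WT. TOP2A was highest at 181 ± 6.56 RPKM (CPM divided by the length of the merged exons in kilobases, mean ± SD, n = 3), followed by CCNB1 at 146 ± 4.68, TPX2 at 139 ± 1.97, CDC20 at 107 ± 6.41 and UBE2C at 103.6 ± 27.2. The lowest were CENPA at 6.03 ± 0.295 and CDC25C at 6.92 ± 0.0990. Of the 44 pairs of neighbours in this order, 28 lay within the sum of their SDs and cannot be ordered. CCNB1, second in WT, was at 84.5 ± 1.76 RPKM in 1-1 KO, close to CDC20 at 86.2 ± 4.11, and at 92.4 RPKM in 1-2 KO.

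The genes that act with the module had medians nearer to 0. Their counts stand beside the shares of all tested genes that were called. These were 32.5% higher and 30.9% lower in 1-1 KO, and 28.2% and 26.2% in 1-2 KO. Of 17 APC/C subunits and coactivators, 4 were higher and 8 lower in 1-1 KO, and 3 and 8 in 1-2 KO, with medians of -0.02 and -0.09. ANAPC4 fell in both (-0.51 and -0.58), ANAPC5 was at -0.52 and -0.21, and ANAPC2, which holds the catalytic cullin domain, was higher (0.63 and 0.48). Of 30 tested inner and outer kinetochore genes that are not members, 8 were higher and 18 lower in 1-1 KO, and 7 and 13 in 1-2 KO, with medians of -0.17 and -0.08. CENPU, of the inner kinetochore, had the largest rise in 1-1 KO, from 14.5 ± 0.785 to 35.0 ± 0.547 CPM (mean ± SD, n = 3, 1.27 on the log2 scale, with a neighbours' median of 0.75), and was at -0.00 in 1-2 KO. PMF1, of the MIS12 complex, fell in 1-1 KO by 0.99 (neighbours' median -0.73). CDCA8 (borealin), a partner of BIRC5 and INCENP, fell by 0.43 and 0.65, and CENPW by 0.14 and 0.39.

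Of 19 condensin and cohesin genes, 6 were higher and 9 lower in 1-1 KO, against 32.5% and 30.9% of all tested genes. In 1-2 KO, 3 were higher and 9 lower, against 28.2% and 26.2%. The medians were -0.10 and -0.09. NCAPG, a condensin I subunit, fell from 301 ± 9.35 CPM in WT to 173 ± 2.18 CPM in 1-1 KO and 184 ± 6.35 CPM in 1-2 KO (-0.80 and -0.71). NCAPH, another subunit of condensin I, was higher in 1-1 KO (0.51, with a neighbours' median of 0.73) and at 0.01 in 1-2 KO, and SGO2 fell by 0.20 and 0.38. Of 12 genes listed for the control of CDK1 at mitotic entry, none was higher and 5 were lower in 1-1 KO. In 1-2 KO, 3 were higher and 5 lower, beside the same shares of all tested genes. The medians were -0.04 and -0.05. CDKN1A (p21) was at 10.3 ± 1.28 CPM in WT, 10.8 ± 0.256 CPM in 1-1 KO and 3.81 ± 0.201 CPM in 1-2 KO (-1.43 in 1-2 KO), and SFN (14-3-3 sigma) at 25.0 ± 1.76, 22.0 ± 1.00 and 10.7 ± 0.547 CPM (-1.22 in 1-2 KO). CHEK2 fell by 0.58 in 1-1 KO and 0.23 in 1-2 KO. ENSA, an inhibitor of the phosphatase PP2A rather than a brake on CDK1, fell by 0.80 and 0.36.

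The genes of the DREAM and MuvB complexes, known as regulators of G2/M promoters, were called in both directions. In 1-1 KO, 7 of 13 were higher and 6 lower, against 32.5% and 30.9% of all tested genes. In 1-2 KO, 5 were higher and 4 lower, against 28.2% and 26.2%. The medians were 0.13 and 0.11. RBL1 (p107) fell by 0.82 in 1-1 KO and by 0.12 in 1-2 KO. E2F5 was higher in both (0.89 and 0.58), and TFDP2 was higher in 1-1 KO (0.86) and lower in 1-2 KO (-0.30). Of the 25 S phase genes, which precede the module in the cycle, 15 were higher and 9 lower in 1-1 KO (median 0.20). The shares of all tested genes there were 32.5% and 30.9%. In 1-2 KO, 11 were higher and 4 lower (median 0.01), against 28.2% and 26.2%. Summed, they were at 4851 to 4944 CPM in WT, 5098 to 5198 CPM in 1-1 KO and 4711 to 4871 CPM in 1-2 KO, so that the 1-1 KO libraries lay above those of WT and the 1-2 KO libraries overlapped WT. TK1 rose in 1-1 KO from 101 ± 0.149 to 176 ± 3.73 CPM (0.80, with a neighbours' median of 0.38), and CCNE1 in 1-2 KO from 26.8 ± 0.765 to 44.2 ± 3.71 CPM (0.72). POLE was at -0.59 in 1-1 KO and 0.18 in 1-2 KO, and SLBP, which binds histone mRNA, fell by 0.24 and 0.46.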

How the data were processed

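The 9 libraries (3 per line) were stranded and made from mRNA, and total counts were 32384469 to 41782387. The deposited values are raw read counts per gene, which the authors made with STAR and featureCounts from paired reads, on hg38 with version 104 of its annotation and with no filter or normalization. Whether the counting used the strand is not given in the sources used here, so that overlapping genes on opposite strands remain uncertain.

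Symbols, positions and exon lengths came from GENCODE 44, which held 60463 of the 60664 identifiers. Counts were filtered with filterByExpr (minimum count 10, minimum total 15), scaled by TMM and tested with the quasi-likelihood test of edgeR 4.0.16 in R 4.3.3, with all 9 libraries in 1 fit. In each of 3 comparisons the p-values of 17207 genes were adjusted after Benjamini and Hochberg (threshold 0.05). The biological coefficient of variation was 5.55%. The SE of a log2 fold change is its size divided by the square root of the F value. Tables were made with pandas 2.3.3 and numpy 2.4.6, and figures with matplotlib 3.10.9, in Python 3.11.15.

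The members, the gene lists and the tests were chosen with earlier results of these data known. Values per library are given for CDK1, CCNB1, PLK1, AURKA, FOXM1, TOP2A and MKI67, for the member of each role with the smallest adjusted p in each knockout, and for the 3 largest rises and falls in each comparison. CCNA2 was added after its values were seen. From each other list the 2 genes with the smallest adjusted p in each knockout are named.

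Alternatives were DESeq2 1.42.0, its size factors in edgeR, library size alone, no filter, 10 counts in every library, only the 2 lines compared, a replicate block, removal of the median change of 50 neighbouring genes, an adjusted p under 0.01, and leaving out each library in turn.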

Additional observations from a re-analysis of the deposited data

How the results depend on the processing

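With DESeq2's Wald test, with DESeq2's size factors in edgeR, without a low-count filter and with the replicate block, the counts of higher and lower members were 8 and 35 in 1-1 KO, 1 and 31 in 1-2 KO, and 17 and 12 between the knockouts, as in the report. The replicate numbers do not pair the libraries: the correlation of deviations between libraries of the same number was between -0.17 and 0.04. Scaling by library size alone gave 3 higher and 26 lower members in 1-2 KO, with medians of -0.28 in 1-1 KO and -0.22 in 1-2 KO, and moved the median of all tested genes to 0.06 and 0.07. With 1 library left out, 7 to 8 members were higher and 34 to 35 lower in 1-1 KO, 1 to 2 higher and 30 to 33 lower in 1-2 KO, and 15 to 19 higher and 12 to 15 lower between the knockouts. The median in 1-2 KO ran from -0.31 to -0.25 in these fits. The 2 higher members in 1-2 KO were MYBL2 with UBE2C without WT replicate 3, and MYBL2 with FOXM1 without replicate 1 of 1-2 KO.

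Removing the neighbours' median changed most: 2 members were higher in 1-1 KO with a median of -0.21, and between the knockouts 10 were higher and 19 lower with a median of -0.043. Among members called with or without this step, the log2 fold change then turned in sign in 1-1 KO for PLK4 (-0.22), CCNA2 (-0.17), MAD2L1 (-0.14), SPC25 (-0.20), NDC80 (-0.11), BIRC5 (-0.000113), KIF2C (0.0042) and MYBL2 (0.039), and in 1-2 KO for CDC25C (-0.35), BIRC5 (-0.18) and MYBL2 (-0.017). Between the knockouts it turned for PTTG1 (-0.45), CDC25C (-0.24), KIF23 (-0.22), PLK1 (-0.20), KIF14 (-0.14), KIF20A (-0.13), AURKB (-0.11), CDC25B (-0.076), MYBL2 (-0.056), TPX2 (-0.029), SPC25 (0.28), FOXM1 (0.18), PLK4 (0.18) and ECT2 (0.13). The cause was not tested. Over the 45 members, the 3 comparisons and all alternatives, 2340 values kept their call or stayed uncalled, these 25 turned in sign, 30 others gained a call and 35 others lost one. CENPA, with 326 to 444 counts, had the lowest count of the members and an SE of 0.073 in 1-1 KO, above that of every other member but UBE2C.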
